A study of Mus musculus with 4 samples.

Results

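The genes described here are 9 that make, conjugate, move and regulate bile acids in the mouse liver: Cyp7a1, Cyp8b1, Cyp7b1, Cyp27a1, Baat, Abcb11, Slc10a1, Nr0b2 and Nr1h4. They were taken by name, as the probe sets annotated with that gene symbol and no other, out of 22180 genes measured. Each of the 9 has 1 probe set, and each read above the detection floor used here on all 4 arrays. That floor, a log2 value of 3.52, is the level that the mean of a typical (median) gene reaches.

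Bile acids are made from cholesterol in hepatocytes. In the classical pathway Cyp7a1 takes the first and rate-limiting step, and the alternative pathway begins with Cyp27a1 and goes on through Cyp7b1. Cyp8b1 adds the 12α-hydroxyl group that sets cholic acid apart from chenodeoxycholic acid and, in mice, from the muricholic acids. Baat joins bile acids to taurine or glycine, Abcb11 exports them across the canalicular membrane, and Slc10a1 takes them up from the portal blood. The bile acid receptor FXR, encoded by Nr1h4, induces Nr0b2, whose product SHP represses bile acid synthesis genes.

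Total RNA from livers of C57BL/6 mice was pooled by genotype and treatment and measured on 1 Affymetrix array per pool, so the 4 arrays are 4 groups with 1 sample each. The pools were 7 wild-type (WT) mice fed 70% fructose for 3 weeks, 7 WT mice fed regular chow, 6 Chrebp null mice after 2 weeks on that fructose diet, and 4 WT mice after the same 2 weeks. The mice were older than 2 months, and every pool held males and females, in proportions that the labels do not state. The series sets 3-week fructose WT against chow WT, and Chrebp-null (Chrebp-/-) against WT after 2 weeks of fructose, and these comparisons share no array. Nothing in the labels says whether the arrays of a pair were prepared apart from the other pair, and no null mice on chow were used here. ChREBP is a transcription factor that responds to sugars.

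Levels are log2 values, and differences between arrays are on the same scale, so 1 is 2-fold. There is no replicate, so no difference has a standard deviation or a p-value, and precision is limited by how few arrays there are. Neighbouring levels cannot be separated from pool-to-pool spread. As a gauge of that spread, the 3-week and 2-week WT fructose pools, which differ in mice and in weeks on the diet, had a median absolute difference of 0.23 over 11648 genes above the floor. In whole liver, fewer cells of a type and less RNA per cell cannot be told apart. Array medians lay between 3.11 and 3.17, and Pearson's r between arrays lay between 0.974 and 0.982. Mlxipl, which encodes ChREBP, read 8.09 in the null pool and 9.83 in the 2-week WT pool, a difference of -1.74, and whether its probes lie in the deleted stretch was not examined. All 12 hepatocyte markers read above the floor on all arrays. Of 8 cholangiocyte markers on the array, Epcam, Sox9 and Slc4a2 read above the floor on every array, Krt7 on 2 arrays, and Krt19, Cftr, Sctr and Cldn7 on none. The summed linear signal of those 8 was 111 in 3-week fructose WT, against 131 in chow WT, and 165 in Chrebp-null, against 136 in 2-week WT.

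Promoters of 6 of the 9 genes were found in RefSeq (GRCm38.p6), each window running from 250 bases before to 50 bases after a transcript's start. None was found for Cyp7a1, Cyp7b1 or Baat, so these genes were not searched. The 3 printed belong to the genes that the results turn on or that stand in contrast to them: Cyp8b1, low in the null pool, Nr0b2, low in both 2-week pools, and Abcb11, a target of FXR whose level was nearly equal in the null and 2-week WT pools. Capitals mark matches on either strand to the motifs searched, which were CACGTG (the E-box, present as a pair in carbohydrate response elements), CAAGGTCA and CAAGGCCA (sites of the LRH-1 type), AGGTCA (the nuclear receptor hexamer), the inverted repeat of that hexamer with 1 base between, TTATGTAA (the D-box) and GTTAAT (part of the HNF1 site).
Cyp8b1 promoter, chr9:121916256-121916555, minus strand: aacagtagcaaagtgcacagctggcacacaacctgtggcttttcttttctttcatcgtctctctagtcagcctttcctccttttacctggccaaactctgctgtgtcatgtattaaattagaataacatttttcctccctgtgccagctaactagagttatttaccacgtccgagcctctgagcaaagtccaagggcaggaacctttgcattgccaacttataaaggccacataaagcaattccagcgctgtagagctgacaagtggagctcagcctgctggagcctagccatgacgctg
Nr0b2 promoter, chr4:133553126-133553425, plus strand: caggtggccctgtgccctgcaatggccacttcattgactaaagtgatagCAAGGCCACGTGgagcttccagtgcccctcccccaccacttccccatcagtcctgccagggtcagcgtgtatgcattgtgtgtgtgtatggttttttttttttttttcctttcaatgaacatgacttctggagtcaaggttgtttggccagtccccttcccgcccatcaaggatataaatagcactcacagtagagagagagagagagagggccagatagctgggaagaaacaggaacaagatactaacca
Abcb11 promoter, chr2:69342567-69342866, minus strand: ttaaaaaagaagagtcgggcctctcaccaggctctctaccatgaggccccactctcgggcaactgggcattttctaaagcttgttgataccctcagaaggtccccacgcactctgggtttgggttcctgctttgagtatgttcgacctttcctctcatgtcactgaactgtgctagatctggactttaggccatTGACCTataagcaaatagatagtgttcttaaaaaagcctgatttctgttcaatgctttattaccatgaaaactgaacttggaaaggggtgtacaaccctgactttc

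The Nr0b2 window held CAAGGCCA from -201 to -194 relative to the start and CACGTG from -195 to -190, which overlap. Of 32851 promoter windows in the RefSeq table, 2.40% held CAAGGCCA and 7.15% held CACGTG. In Abcb11 the hexamer AGGTCA was matched on the opposite strand from -56 to -51, and 16.3% of all windows held it. The Nr1h4 window held AGGTCA, on the opposite strand, and GTTAAT, which 7.10% of windows held, and 1 of the 2 Slc10a1 windows held AGGTCA. These letters were not in the Cyp8b1 and Cyp27a1 windows, and CAAGGTCA (1.56% of windows), TTATGTAA (0.938%) and the inverted repeat (0.0091%) were in none of the 7 windows. Only exact letters were searched, so a site with a changed letter was not marked. In the Abcb11 window, aggcca stands 1 base before the marked TGACCT, which is the inverted repeat but for 1 letter. A match describes letters in the window and not binding.

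In Chrebp-null livers, Cyp8b1 stood far below its level in every WT liver pool, while the other 3 cytochromes of bile acid synthesis differed from the 2-week WT pool by -0.34 to 0.31. Cyp8b1 (probe set 17532409) read 8.07 in the 3-week fructose WT pool, against 8.21 in the chow WT pool, and 5.77 in the Chrebp-null pool, against 7.98 in the 2-week WT pool. The 3 WT pools lay within 0.23 of each other, and the null pool was below all of them. The difference between null and 2-week WT was -2.21, a ratio of 4.63 with the WT level on top, which ranked 27 from the lowest among the 11631 genes above the floor. Against the 3-week WT pool it was -2.30. Cyp8b1 was the 1 gene of the 9 past 2-fold lower in the null comparison, where the share over all genes above the floor was 1.43%. Of the 9, 0 were past 2-fold higher, where that share was 2.03%. Set over the 3-week WT pool instead, 3 of the 9 (Cyp8b1, Cyp7b1 and Nr0b2) were past 2-fold lower in the null pool, where the share was 1.95%. The median difference of the 9 genes was -0.23, where that of all genes was 0.10.

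**Figure D1:**
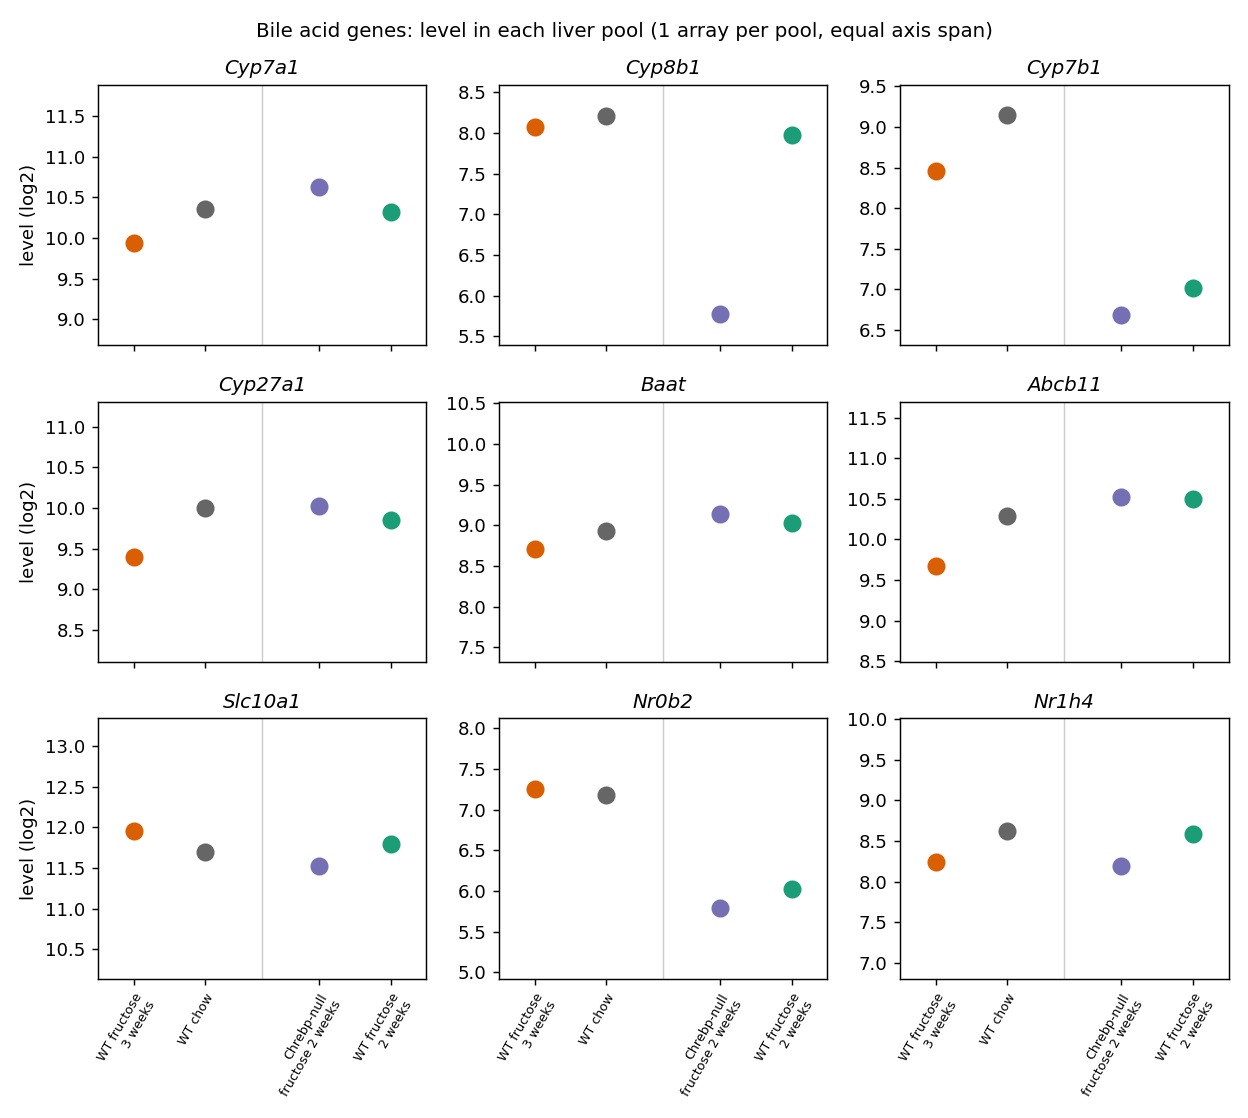
Log2 level of the 9 genes (vertical axis, the same span of 3.2 in each panel) in the 4 liver pools (horizontal axis, 1 point per array). Cyp8b1 is low in the Chrebp-null pool, at 5.77, while Cyp7b1 and Nr0b2 are low in both pools of the 2-week pair, and the other 6 genes span at most 0.85.

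Cyp7a1, the rate-limiting enzyme, had its highest level in the null pool and its lowest after 3 weeks of fructose, within a narrow range. It read 9.94 in the 3-week fructose WT pool, against 10.35 in the chow WT pool, and 10.63 in the Chrebp-null pool, against 10.32 in the 2-week WT pool. The 2-week WT and chow WT levels differed by 0.03, so the lower value was read in the 3-week pool and not in the 2-week WT pool. The difference of 3-week fructose over chow was -0.41, and 22.5% of genes above the floor had one at least as large. The difference between null and 2-week WT was 0.31, and 35.8% of genes above the floor had one at least as large.

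Cyp27a1, the mitochondrial sterol 27-hydroxylase, ordered the pools as Cyp7a1 did. Its levels were 9.40 in 3-week fructose WT, against 9.999 in chow WT, and 10.02 in Chrebp-null, against 9.85 in 2-week WT. The 3-week pool lay below the other 3, which were within 0.17 of each other.

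Cyp7b1, the oxysterol 7α-hydroxylase of the alternative pathway, differed more between the pairs of arrays than within either pair. Cyp7b1 (probe set 17404245) read 8.46 in the 3-week fructose WT pool, against 9.15 in the chow WT pool, and 6.68 in the Chrebp-null pool, against 7.02 in the 2-week WT pool. Both pools of the 2-week pair lay at least 1.44 below both of the other pools. Within the pairs the differences were smaller, at -0.69 for 3-week fructose over chow and -0.34 for null over WT. Taken across the pairs, the difference of 2-week WT over chow was -2.13, which ranked 11 from the lowest among 11622 genes above the floor.

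Baat, which conjugates bile acids, varied little. Baat read 8.70 in the 3-week fructose WT pool, against 8.93 in chow WT, and 9.14 in the Chrebp-null pool, against 9.02 in 2-week WT. The 4 levels spanned 0.44.

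Of the transporters, Abcb11 was lowest after 3 weeks of fructose and Slc10a1 was highest there. The export pump gene Abcb11 read 9.67 in 3-week fructose WT, against 10.29 in chow WT, and 10.52 in Chrebp-null, against 10.49 in 2-week WT. Its difference between null and 2-week WT was 0.02, the smallest of the 9. Over chow it stood at -0.62 at 3 weeks and at 0.20 at 2 weeks. The 2-week difference is small, as 49.4% of genes above the floor had one at least as large.

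Slc10a1, the sodium-dependent uptake carrier, read 11.96 in 3-week fructose WT, against 11.69 in chow WT, and 11.52 in Chrebp-null, against 11.79 in 2-week WT. Both WT fructose pools were above chow, by 0.26 and 0.10, and the null pool was lowest. The 4 levels spanned 0.44.

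The receptor gene Nr1h4 varied little and its target Nr0b2 split by pair. Nr1h4 (FXR) read 8.24 in 3-week fructose WT, against 8.63 in chow WT, and 8.19 in Chrebp-null, against 8.59 in 2-week WT. The difference was thus -0.39 for 3-week fructose over chow and -0.40 for null over WT.

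Nr0b2, the gene of the repressor SHP, read 7.25 in the 3-week fructose WT pool, against 7.18 in chow WT, and 5.79 in the Chrebp-null pool, against 6.03 in 2-week WT (probe set 17419622). Within the pairs it differed by 0.07 and -0.23. Both pools of the 2-week pair lay at least 1.16 below both of the others, as for Cyp7b1. For both genes, weeks on the diet, the mice pooled and the pair of arrays cannot be told apart. Over chow, Nr0b2 thus stood at -1.16 in 2-week WT and at 0.07 in 3-week WT. Low Nr0b2 stood beside high Cyp8b1 in the 2-week WT pool and beside low Cyp8b1 in the null pool.

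Setting 3-week fructose against chow, 7 of the 9 genes were lower and 2 higher, and 0 were past 2-fold in either direction. Over the 11717 genes above the floor, 6619 were lower, 0.64% were past 2-fold higher and 1.16% past 2-fold lower. The largest differences were -0.69 for Cyp7b1, -0.62 for Abcb11 and -0.60 for Cyp27a1, and the median over the 9 genes was -0.39, against -0.05 for all genes. With 2-week WT over chow, which shares the chow array, that median was -0.04, and 2 genes, Cyp7b1 and Nr0b2, were at least 2-fold lower, where the share over all genes was 1.41%. The 3-week over 2-week WT difference was at least 2-fold for the same 2 genes, at 1.44 and 1.23, and 1.27% of all genes were at least 2-fold higher there.

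**Figure D2:**
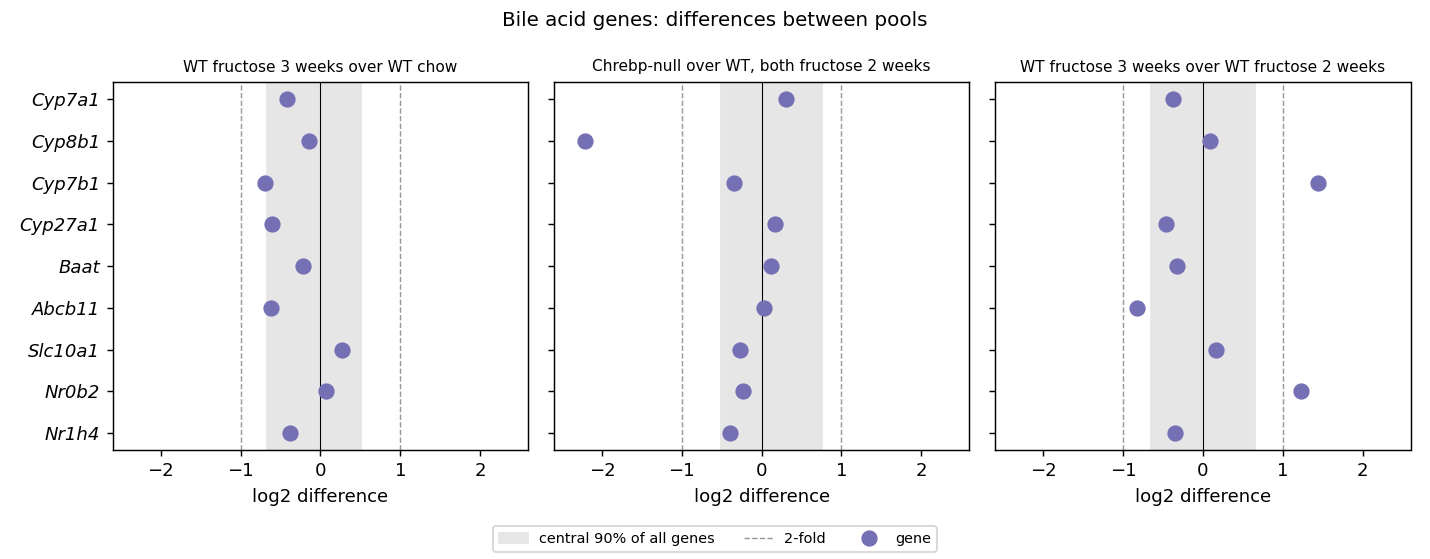
Log2 difference (horizontal axis) of the 9 genes (vertical axis) for 3-week fructose WT over chow WT, Chrebp-null over WT at 2 weeks, and 3-week over 2-week WT on fructose. The grey band holds the central 90% of all genes above the floor and dashed lines mark 2-fold; Cyp8b1 at -2.21 is past 2-fold in the middle panel, and Cyp7b1 and Nr0b2 at 1.44 and 1.23 in the right one.

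How many genes share these patterns was counted after the levels were seen. The null pool was at least 2-fold below each of the 3 WT pools for 76 genes, 0.623% of the 12194 above the floor on any array, and Cyp8b1 is 1 of them. Both 2-week pools were at least 2-fold below both other pools for 23 genes, 0.189%, among them Cyp7b1 and Nr0b2. The reverse of that second pattern was met by 12 genes, 0.0984%, and by 0 of the 9.

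The genes with levels most like those of Cyp8b1 over the 4 arrays were Ces3a, Keg1 and Mup3, by Euclidean distance between profiles centred on their means, among 11375 genes searched. Ces3a, a carboxylesterase, read 11.29 in 3-week fructose WT, against 11.58 in chow WT, and 9.23 in Chrebp-null, against 11.32 in 2-week WT, at a distance of 0.17. Keg1 and Mup3, a major urinary protein gene, followed at distances of 0.19 and 0.25. Closest to Nr0b2 were Serpinb1a, a protease inhibitor gene, at 0.14, H4c9, a histone H4 gene, at 0.18, and Slc22a7, an organic anion transporter gene, at 0.26. Cyp7b1 had no profile as near, with Phlda1, Corin and Sult5a1 at 0.51, 0.55 and 0.58. Ces3a, Mup3 and H4c9 have close relatives that array probes may not separate, and Serpinb1a and H4c9 read below the floor in both 2-week pools, so their distances to Nr0b2 rest on values below the floor.

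**Figure D3:**
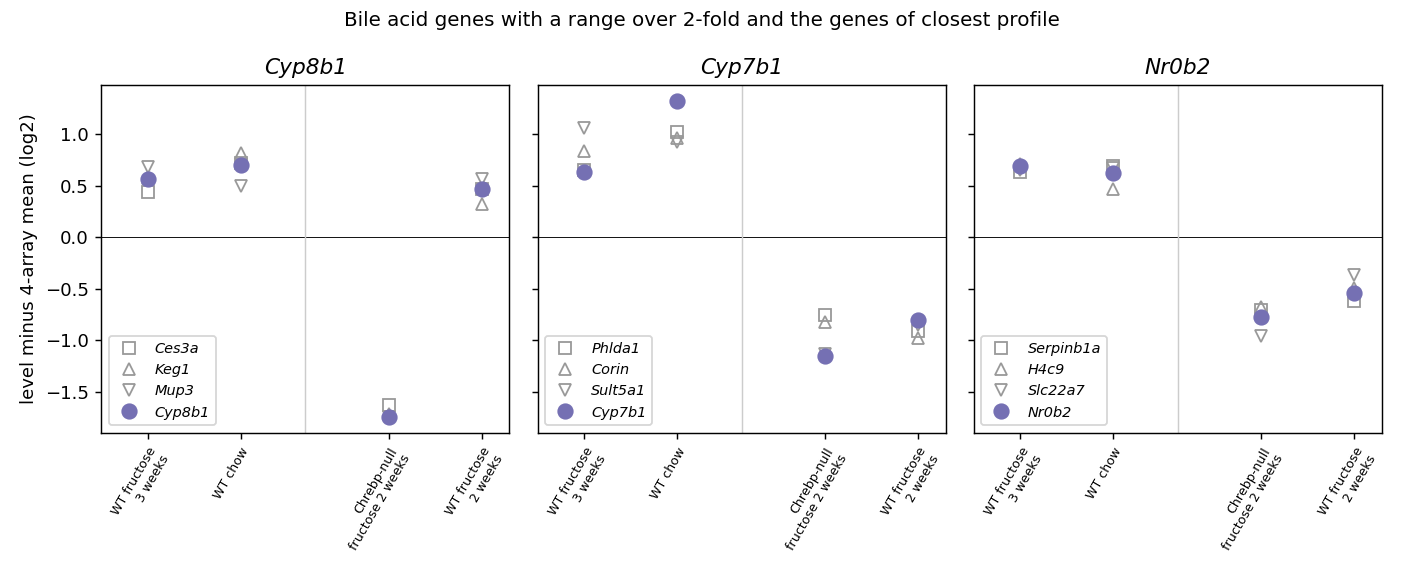
Level minus the gene's mean over the 4 arrays (log2, vertical axis) in each pool (horizontal axis) for the 3 bile acid genes that span over 2-fold (filled circles) and the 3 genes of closest profile to each (open symbols). Cyp8b1 lies at -1.74 in the Chrebp-null pool, while Cyp7b1 and Nr0b2 lie below their means in both 2-week pools.

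Mouse livers of the 2 sexes differ in many of these genes, and Cyp7b1 is known to be higher in males, so sex-biased genes were set beside the result. Of 14 male-biased genes on the array, 13 were above the floor in the null comparison, of which 8 were past 2-fold lower in the null pool, with a median of -1.10. Of 10 female-biased genes above the floor there, 3 were at least 2-fold lower and 1 higher, with a median of -0.38. Of those 3, A1bg read 2.34 in the null pool, below the floor, against 3.85 in 2-week WT. Counted from the floor its difference was -0.33, which is short of 2-fold. The 76 genes that share the Cyp8b1 pattern included 7 of the 14 male-biased and 3 of 13 female-biased genes, with A1bg among the 3. Male-biased Elovl3 read 4.12 in the null pool and 8.04 in 2-week WT. The 23 genes that share the Cyp7b1 and Nr0b2 pattern included 5 of 13 female-biased genes and 0 male-biased ones. Sult3a1, a female-biased sulfotransferase gene, read 8.02 in 3-week fructose WT, against 7.62 in chow WT, and 2.67 in Chrebp-null, against 3.50 in 2-week WT.

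Xist, expressed from the inactive X chromosome, read 8.77 in 3-week fructose WT, against 8.84 in chow WT, and 7.04 in Chrebp-null, against 8.56 in 2-week WT. The Y-linked gene Eif2s3y read 6.00 in 3-week fructose WT, against 6.12 in chow WT, and 7.34 in Chrebp-null, against 6.51 in 2-week WT. Xist was thus lowest and Eif2s3y highest in the null pool, which was also the pool with the lowest Cyp8b1, Cyp7b1 and Nr0b2. The part that the share of male and female livers has in these 3 results was not tested.

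**Figure D4:**
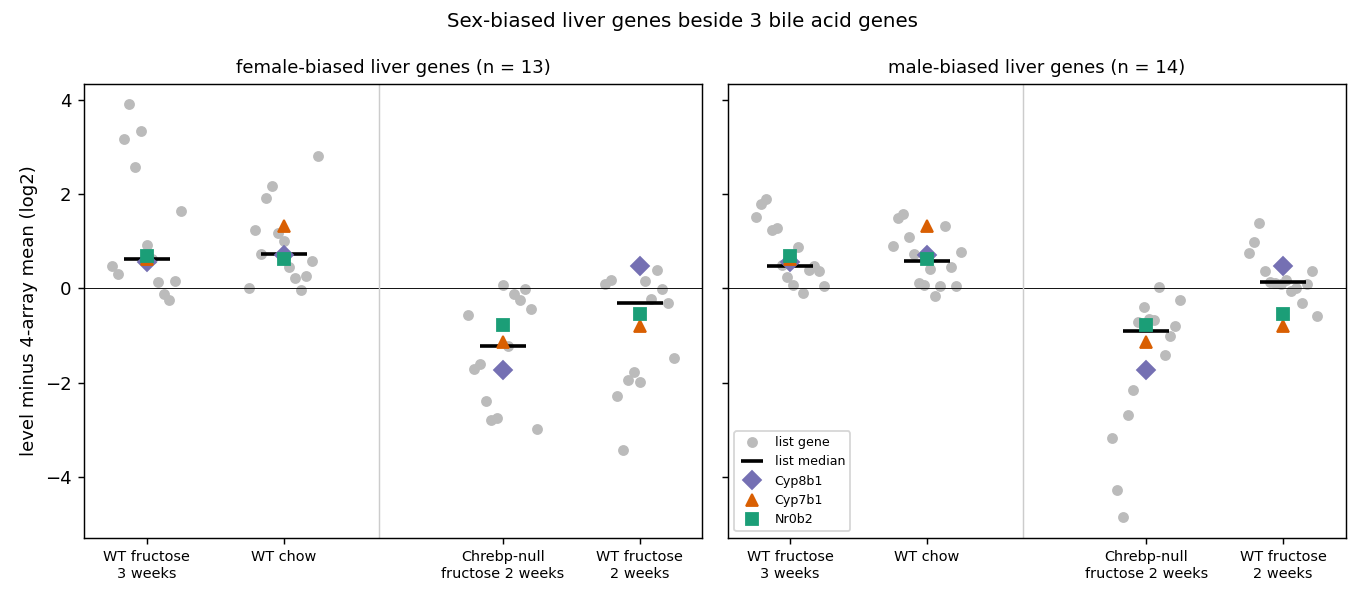
Level minus the gene's mean over the 4 arrays (log2, vertical axis) in each pool (horizontal axis) for 13 female-biased (left) and 14 male-biased (right) liver genes, with Cyp8b1, Cyp7b1 and Nr0b2 drawn in both. List medians (black bars) lie at -1.23 and -0.90 in the Chrebp-null pool and at -0.32 and 0.13 in the 2-week WT pool, for the female-biased and male-biased lists in that order.

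Other measures differed between the pools as well. Cyp7a1 is a rhythmic gene and a target of the clock output factor DBP, and the labels do not give the hour of collection. Dbp read 8.53 in 3-week fructose WT, against 9.70 in chow WT, and 8.78 in Chrebp-null, against 9.63 in 2-week WT. It had the largest difference of the clock genes in 3-week fructose WT over chow WT, and stood at -0.08 in 2-week WT over chow. Of 15 clock genes above the floor, 10 were lower and 5 higher in 3-week fructose WT than in chow WT. Their median was -0.10, against -0.05 for all genes. Of 14 clock genes above the floor in the null comparison 10 were lower, with a median of -0.46. The 4 higher ones were Nfil3 at 0.94, Arntl at 0.57, Clock at 0.41 and Cry1 at 0.17. Among pericentral hepatocyte markers, a zone where Cyp7a1 is also expressed in rats, 9 of 9 were lower in 3-week fructose WT than in chow WT, with a median of -0.40, and 9 of 9 in 2-week WT than in the same chow pool, with a median of -0.52. In Chrebp-null over 2-week WT, 8 of 9 pericentral markers were higher, with a median of 0.23, and 6 of 6 periportal markers were lower, with a median of -0.16. Of those 6 periportal markers, 3 were lower and 3 higher in 3-week fructose WT than in chow WT. In 2-week WT over chow WT, 5 of them were lower and 1 higher, with a median of -0.10. Over all genes above the floor, 7377 of 11631 were higher in Chrebp-null than in 2-week WT, with a median of 0.10. Set over chow WT, 6619 of 11717 were lower in 3-week fructose WT and 6456 of 11622 in 2-week WT. The medians of all genes there were -0.05 and -0.04. The summed linear signal of the pericentral markers was 10658 in 3-week fructose WT, against 12317 in chow WT, and 10872 in Chrebp-null, against 9615 in 2-week WT. Hepatocyte markers summed to 37918 in 3-week fructose WT, against 38812 in chow WT, and 38915 in Chrebp-null, against 39498 in 2-week WT. Whether clock phase or zonation has a part in the members' differences was not tested.

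The other enzymes of bile acid synthesis kept within 2-fold in both comparisons. Of 15 above the floor, 11 were lower and 4 higher in 3-week fructose WT than in chow WT, with a median of -0.19, and 8 were lower and 7 higher in Chrebp-null than in 2-week WT, with a median of -0.04. Of all genes above the floor, 6619 of 11717 were lower in the first comparison and 4249 of 11631 in the second. Akr1c6 had the largest difference of these enzymes in the first comparison, at -0.67, and Amacr, which racemises the side chain, stood at -0.53. Cyp39a1, another oxysterol 7α-hydroxylase, read 9.49 in the null pool and 8.96 in 2-week WT, a difference of 0.53. Cyp2c70, which makes muricholic acids in mice, read 11.63 in Chrebp-null and 11.34 in 2-week WT. Slc27a5, the bile acid CoA ligase that acts before Baat, read 10.15 in Chrebp-null and 10.26 in 2-week WT.

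Transporters held the widest differences around the 9 genes. In the null comparison 2 of 14 were past 2-fold higher and 1 past 2-fold lower, with a median of -0.08. Abcc4, a basolateral exporter, read 7.27 in Chrebp-null and 4.51 in 2-week WT, a difference of 2.77, and stood between 4.46 and 4.86 in all WT pools. Slco1a4, an organic anion uptake carrier, read 9.22 in Chrebp-null and 8.14 in 2-week WT, a difference of 1.09. Its male-biased relative Slco1a1 read 2.83, below the floor, in Chrebp-null and 9.07 in 2-week WT, a log2 difference of -5.55 with the null level set at the floor. Canalicular Abcc2 stood at 0.25, and the phospholipid flippase gene Abcb4, an FXR target as Abcb11 is, at 0.26.

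In 3-week fructose WT 2 of 14 transporters were at least 2-fold lower than in chow WT, Abcc3 at -1.82 and Slco1a4 at -1.36, with a list median of -0.32. In 2-week WT over chow they stood at -0.72 and -0.86. Abcb4 read 8.92 in 3-week fructose WT, against 9.50 in chow WT, a difference of -0.58 beside -0.62 for Abcb11. The cholesterol exporter genes Abcg5 and Abcg8 stood at -0.56 and -0.22 there, and at -0.44 and -0.57 in the null comparison.

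**Figure D5:**
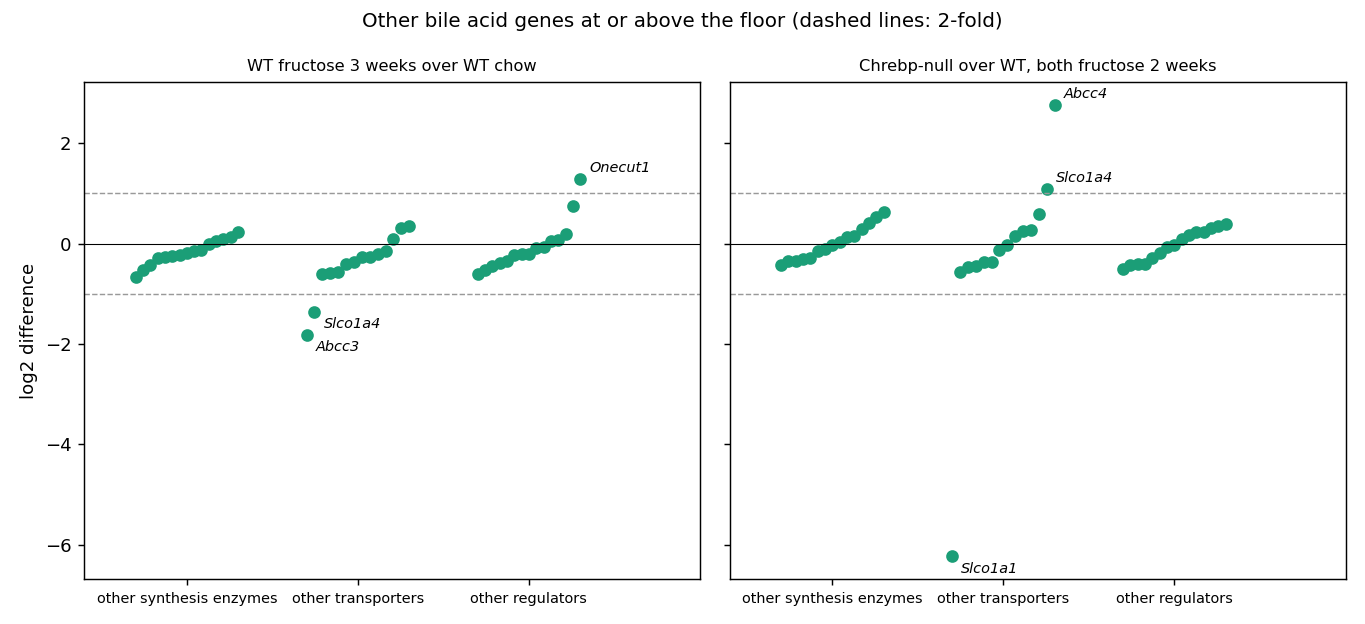
Log2 difference (vertical axis) of the other synthesis enzymes, transporters and regulators above the floor, 1 point per gene, for 3-week fructose WT over chow WT (left) and Chrebp-null over WT at 2 weeks (right). Genes past the dashed 2-fold lines are named; they are Abcc3, Slco1a4 and Onecut1 on the left and Slco1a1, Slco1a4 and Abcc4 on the right, with Slco1a1 drawn as read at -6.24.

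Regulators mostly kept within 2-fold in both comparisons. Of 15 above the floor in 3-week fructose WT over chow WT, 10 were lower and 5 higher, with a median of -0.20. Onecut1 alone passed 2-fold there, while Ppargc1a stood at 0.76, Nr2f2 at -0.61 and Foxa2 at -0.53. With 2-week WT over chow, Foxa2 stood at -1.25. Of 15 above the floor, 0 passed 2-fold in the null comparison, with a median of -0.02, and Klb, the FGF15 co-receptor, stood at -0.51. Hnf4a, which binds the Cyp7a1 and Cyp8b1 promoters, read 10.09 in Chrebp-null and 10.27 in 2-week WT, and Nr5a2 (LRH-1) read 8.47 in Chrebp-null and 8.87 in 2-week WT. Onecut1, the gene of hepatocyte nuclear factor 6, read 10.05 in 3-week fructose WT, against 8.77 in chow WT, and 7.71 in Chrebp-null, against 8.12 in 2-week WT. Its difference on 3-week fructose was 1.28, and with 2-week WT over chow it was -0.65. Fgf15, the gut hormone that represses Cyp7a1, read below the floor on every array.

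Targets of FXR and of the oxysterol receptor LXR, Srebf1 apart, kept within 2-fold between the pools of a pair. Of 7 FXR targets above the floor other than the 9 genes, 0 passed 2-fold in either comparison, with medians of -0.16 for 3-week fructose over chow and -0.01 for null over WT. Of 9 LXR targets, Srebf1 alone passed 2-fold, at 8.12 in Chrebp-null and 9.67 in 2-week WT. The LXR medians were -0.20 and -0.24 in the same comparisons, where those of all genes were -0.05 and 0.10. Of the 9 LXR targets, 5 were lower in 3-week fructose WT than in chow WT, and 8 in Chrebp-null than in 2-week WT. In 2-week WT, 9 of 9 were higher than in that chow pool, with a median of 0.18.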

How the data were processed

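Liver RNA pools were measured on 1 array each. The authors deposited log2 expression values for 41345 probe sets, made with affy and RMA per the submitters' processing notes (versions and joint or separate normalization: not given in the sources used here). RMA compresses large differences, and differences between dim genes. Read depth does not apply to arrays.

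The values were used as deposited. The platform annotation gave 1 symbol to 23521 probe sets, several to 1814 and none to 16010. Each gene took its probe set with the highest mean, leaving 22180 genes. The symbols of all 9 genes matched the Entrez entries of the GRCm38.p6 table. A gene was counted where the higher array reached the floor, the 50 percentile of mean levels, and where the log2 difference was at least 2-fold. No difference was tested. The series text counts the mice in each pool. Named list genes were the 3 with the largest difference in either comparison and those past 2-fold, with others added for their role; not all are printed. Profiles were compared for genes spanning at least 1. Members and lists were chosen with earlier results of these data known. The counting of genes past 2-fold was run on simulated data with changes well past 2-fold, bright genes and little noise. That checks the code and not the error of the counts in these arrays. Alternatives changed the floor, normalization, trend (lowess, fraction 0.3), probe sets, threshold or WT array. Python 3.11.15, numpy 2.4.6, pandas 2.3.3, scipy 1.17.1, statsmodels 0.14.6 and matplotlib 3.10.9 were used.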

Additional observations from a re-analysis of the deposited data

Results flagged for a closer look

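Some genes differed in opposite directions in the 2 WT fructose pools when each was set over the same chow pool, with at least 1 of the differences past 2-fold. With 1 array per pool the difference between them was not tested. Nr0b2 stood at 0.0713 at 3 weeks and at -1.16 at 2 weeks. Onecut1 stood at 1.28 at 3 weeks and at -0.65 at 2 weeks. Of 13 female-biased genes on the array, 4 met the same condition. Cyp3a44 stood at 2.46 and -3.01 at 3 and 2 weeks, Cyp3a16 at 1.99 and -5.35, Sult3a1 at 0.41 and -4.12, and Sult3a2 at 2.16 and -2.96. Cyp3a16, Sult3a1 and Sult3a2 were below the floor at 2 weeks in WT, and counted from the floor their differences at 2 weeks were -4.12, -4.09 and -2.03. Members of these families may share probes.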

How the results depend on the processing

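The differences of the 9 genes were recomputed under 11 alternatives in each comparison. On the same arrays, all 81 values of the null comparison kept their direction and their side of 2-fold, with Cyp8b1 between -2.29 and -2.20. All 81 values of the fructose comparison kept their direction. At 1.5-fold 3 genes were counted as lower, as were 826 of the 11717 genes above the floor. Settings of floor, probe set and threshold could not move these differences, since each gene has 1 probe set and lies above the floor. Only the changes of normalization and trend could do so. With the 2-week in place of the 3-week WT array over chow, 2 genes were at least 2-fold lower (Cyp7b1 at -2.13 and Nr0b2 at -1.16), Baat and Abcb11 turned to 0.10 and 0.20, and the median of the 9 was -0.0369. With the mean of both WT arrays 1 gene was lower and Nr0b2 turned to -0.54, and the counts over all genes at that setting are given below. In the null comparison, 3 genes were lower against the 3-week WT array, where the share over all genes was 1.95%. Against the mean of both, 2 were lower, and the share over all genes there is not given here. The causes were not tested.

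Over the 11717 genes above the floor, the fructose comparison had 75 higher and 136 lower. Higher and lower counts were 418 and 826 at 1.5-fold, 14 and 15 at 3-fold, and 38 and 77 with the mean of both WT arrays. With the floor at the 75 percentile 40 were higher, and the split with the trend of difference on level removed was 93 higher and 105 lower. The null comparison had 236 higher and 166 lower over 11631 genes above the floor. Its counts were 1065 and 441 at 1.5-fold, 46 and 54 at 3-fold, and 87 and 110 with the higher floor. With the trend of difference on level removed 140 were higher and 225 lower, and 398 were higher against the 3-week array. No paired analysis was possible because each group has 1 array.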
